A study of Homo sapiens with 9 samples.

Results

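Bivalent promoters are gene starts that carry H3K4me3 and H3K27me3 at the same time. Here a promoter was the window of 2 kb on both sides of the start of a protein-coding gene (GENCODE 44 mapped to GRCh37), and it was a member when at least 1 base of it lay under an H3K4me3 island and at least 1 base under an H3K27me3 island in WT cells. Of 20136 promoters, 1719 met this rule (8.54%). They were 13.2% of the 13033 promoters with H3K4me3 in WT and 42.1% of the 4082 promoters with H3K27me3 in WT. The H3K4me3 and H3K27me3 islands of WT chose the members, so the values of these marks are a description, and H3K9me3 and H3R8me2a were not used by the rule.

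The cells were BEAS-2B, a virus-immortalized line of human bronchial epithelial cells. Mdig KO cells came from CRISPR-Cas9 editing of RIOX2, the gene of the JmjC domain protein mdig, followed by blasticidin selection of colonies and screening for loss of mdig protein. WT cells were colonies of the same transfection and selection that kept the protein, and how many clones went into a library is not stated in the labels or the methods. For each of the 4 marks there was 1 ChIP-seq library of KO cells and 1 of WT cells, next to 1 input of WT cells. No difference below therefore has a replicate, an error or a test. The authors deposited islands, stretches of enriched reads known by their position, without a height or read number, and the depth behind them is unknown. Islands covered 102 Mb in KO and 88.8 Mb in WT for H3K4me3, 342 Mb and 256 Mb for H3K27me3, 195 Mb and 52.8 Mb for H3K9me3, and 100.4 Mb and 62.3 Mb for H3R8me2a. More covered length and more permissive calling cannot be told apart in these data.

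H3K4me3 is placed by COMPASS and MLL complexes at CpG-rich starts, and H3K27me3 by Polycomb repressive complex 2. Promoters with both were described in embryonic stem cells, at genes of developmental regulators that are silent or barely transcribed and held ready for either outcome. On differentiation many keep 1 of the marks, a step often called resolution. H3K9me3 is the mark of heterochromatin bound by HP1, and H3R8me2a is asymmetric dimethylation of an arginine beside lysine 9. In bulk chromatin, both marks on the same nucleosome and each mark in other cells or on the other allele cannot be told apart.

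The sequence around the gene start is shown for 4 members, because CpG content is a property of the members that the rule did not use. Each run holds 250 bases before the start and 50 bases from it on, read 5′ to 3′ in the direction of the gene from the GRCh37 genome, with CpG dinucleotides in capitals. ZNF503, a zinc finger repressor that had both marks in KO and in WT, is at chr10:77161473-77161772 on the minus strand. WNT3A, a secreted WNT ligand that had H3K27me3 alone in KO, is at chr1:228194449-228194748 on the plus strand. KLF14, a Krüppel-like zinc finger factor that had H3K4me3 alone in KO, is at chr7:130418918-130419217 on the minus strand. BARX1, a homeobox factor of stomach and tooth development that had H3K9me3 over the whole window in KO, is at chr9:96717588-96717887 on the minus strand.
ZNF503: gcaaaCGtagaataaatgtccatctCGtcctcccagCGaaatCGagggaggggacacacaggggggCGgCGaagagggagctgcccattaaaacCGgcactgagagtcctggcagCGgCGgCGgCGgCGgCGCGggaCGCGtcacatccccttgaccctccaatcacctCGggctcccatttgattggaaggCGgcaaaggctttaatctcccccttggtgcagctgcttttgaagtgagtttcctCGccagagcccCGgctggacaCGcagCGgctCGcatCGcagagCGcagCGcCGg
WNT3A: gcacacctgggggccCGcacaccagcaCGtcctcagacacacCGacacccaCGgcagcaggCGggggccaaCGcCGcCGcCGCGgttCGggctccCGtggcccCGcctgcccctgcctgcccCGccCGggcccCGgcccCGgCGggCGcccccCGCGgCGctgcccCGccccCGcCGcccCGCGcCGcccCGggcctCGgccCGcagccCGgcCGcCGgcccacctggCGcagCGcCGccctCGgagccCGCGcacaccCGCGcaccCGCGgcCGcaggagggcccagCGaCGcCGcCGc
KLF14: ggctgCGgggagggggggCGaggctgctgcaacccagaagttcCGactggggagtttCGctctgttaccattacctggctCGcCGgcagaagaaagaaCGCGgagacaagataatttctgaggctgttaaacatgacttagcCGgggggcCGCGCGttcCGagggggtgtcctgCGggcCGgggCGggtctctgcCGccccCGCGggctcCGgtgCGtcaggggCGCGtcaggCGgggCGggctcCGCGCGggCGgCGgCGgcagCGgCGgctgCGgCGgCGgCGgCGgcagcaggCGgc
BARX1: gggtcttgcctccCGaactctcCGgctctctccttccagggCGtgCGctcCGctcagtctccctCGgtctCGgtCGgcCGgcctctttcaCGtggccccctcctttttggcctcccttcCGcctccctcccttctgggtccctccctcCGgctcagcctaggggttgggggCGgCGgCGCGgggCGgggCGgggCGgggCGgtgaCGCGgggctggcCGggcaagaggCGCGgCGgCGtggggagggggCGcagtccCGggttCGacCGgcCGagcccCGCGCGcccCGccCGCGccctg

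These runs hold 27, 49, 39 and 38 CpG dinucleotides, in the order shown. The median over the 1719 members was 26 CpG and a GC content of 67%. The ratio of observed to expected CpG had a median of 0.791 at members, against 0.815 at the 11314 promoters with H3K4me3 alone in WT, 0.381 at the 2363 with H3K27me3 alone and 0.694 at all promoters. A ratio over 0.6 was found at 78.0% of the members, 78.6% of the H3K4me3-alone, 34.5% of the H3K27me3-alone and 58.0% of all promoters. Members thus had the CpG content of promoters with H3K4me3, and the promoters with H3K27me3 alone mostly did not. The GC box letters GGGCGG, searched on both strands, were in 70.4% of the members, 65.5% of the H3K4me3-alone promoters and 52.2% of all promoters. They are in the runs of ZNF503, WNT3A, KLF14 and BARX1. The TATA box letters TATAAA were in 6.81% of the members, 6.20% of the H3K4me3-alone promoters and 10.9% of all, and CCAAT in 32.5%, 36.5% and 35.8%. None of the 4 runs shown holds TATAAA. By state in KO, the median ratio was 0.800 at members with both marks, 0.757 at those with H3K4me3 alone and 0.791 at those with H3K27me3 alone, so CpG content differed little between the outcomes.

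In WT the 2 marks mostly lay on the same bases. At 1614 members (93.9%) the islands shared at least 1 base, with a median of 2105 shared bases of the 4001 in a window, and at 1055 (61.4%) the gene start itself was under both. H3K27me3 covered the whole window of 806 members (46.9%) and H3K4me3 that of 390 (22.7%). The median WT island was 4 kb long for H3K4me3 and 10 kb for H3K27me3, against 6 kb at promoters with H3K4me3 alone and 15.2 kb at those with H3K27me3 alone. Near the threshold, the smallest overlap was 27 bases of H3K4me3 and 3 bases of H3K27me3. There were 32 members with at most 200 bases of H3K27me3, of which 23 had the mark in KO, and 24 promoters just outside, whose H3K27me3 island ended within 200 bases of the window, of which 9 had it in KO. On the side of H3K4me3, 7 members had at most 200 bases, 5 of them with the mark in KO, and 7 promoters lay just outside. Windows of neighboring genes overlap, and the members fall into 1571 separate loci, of which 143 hold more than 1 member.

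In KO, 1303 of the 1719 members (75.8%) had both marks, 209 (12.2%) had H3K4me3 alone, 203 (11.8%) had H3K27me3 alone and 4 (0.233%) had neither. About as many members were thus left with the active mark alone as with the Polycomb mark alone. H3K4me3 was absent in KO at 207 members (12.04%), against 108 of 11314 promoters with H3K4me3 alone in WT (0.955%) and 2.42% of all promoters with H3K4me3 in WT. H3K27me3 was absent in KO at 213 members (12.4%), against 156 of 2363 promoters with H3K27me3 alone (6.60%) and 9.04% of all promoters with H3K27me3 in WT. The contrast chose the members in part, and none of these shares was tested. Most absences reached past the window, since 35 of the 207 members without H3K4me3 (16.9%) and 52 of the 213 without H3K27me3 (24.4%) had a KO island of that mark within 10 kb of the start. Where the longest islands of the larger library were kept up to the total length of the smaller one, both marks were left at 561 members (32.6%) in KO.

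**Figure D1:**
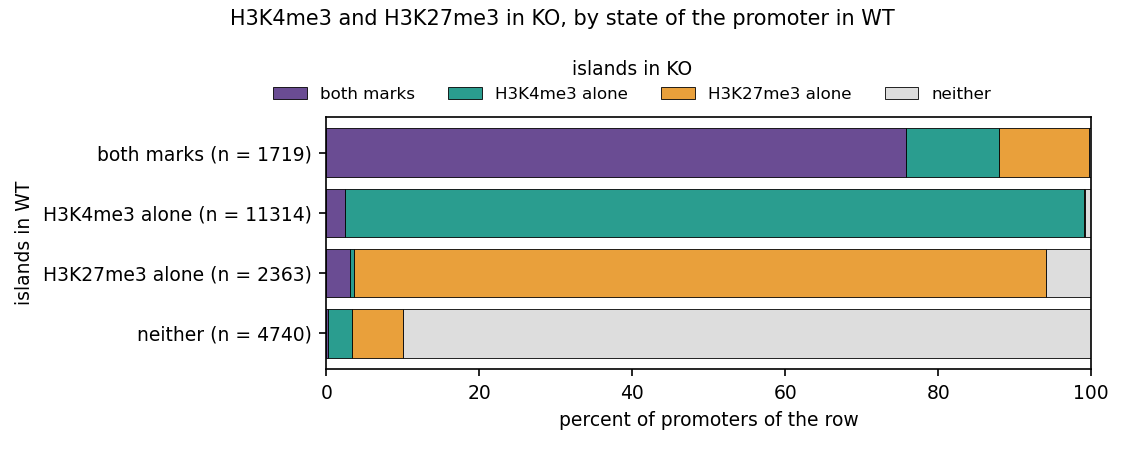
Each bar divides the promoters of 1 WT state (rows, with their number) by the islands they had in KO, in percent, from 1 library per mark and genotype. Of the members in the top row 75.8% had both marks in KO, 12.2% H3K4me3 alone and 11.8% H3K27me3 alone, while 96.6% of the H3K4me3-alone and 90.4% of the H3K27me3-alone promoters stayed in their state.

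The share without a mark in KO followed the width of that mark in WT. For H3K4me3, 37.5% of the members with 1 to 1000 WT bases had none in KO, 30.0% of those with 1001 to 2000, 12.5% of those with 2001 to 3000, 6.81% of those with 3001 to 4000 and 3.59% of those whose window was covered whole. At promoters with H3K4me3 alone, the same widths gave 20.3%, 7.98%, 1.27%, 0.248% and 0.118%, so members had the larger share at each width. For H3K27me3 the members gave 26.2%, 17.6%, 21.0%, 10.4% and 5.71% from the narrowest to the widest class, and the H3K27me3-alone promoters 25.8%, 22.2%, 14.6%, 9.42% and 2.58%. For this mark the order of the groups changed between widths. Members that had no H3K4me3 in KO had a median of 2200 WT bases of it, against 3200 at the members that kept it, and the medians for H3K27me3 were 2012 and 4001 bases.

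**Figure D2:**
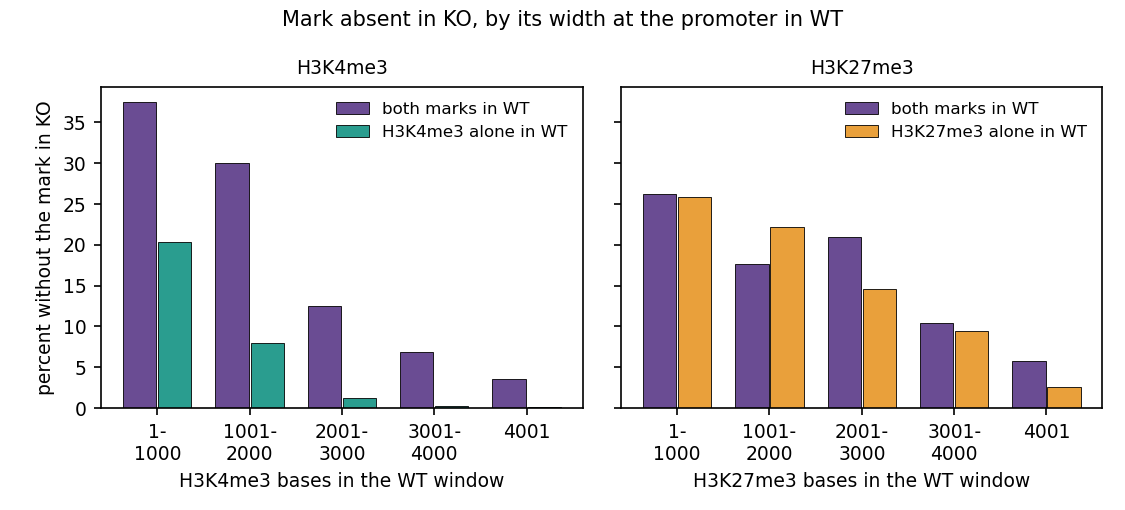
Percent of promoters without H3K4me3 (left) or H3K27me3 (right) in KO, by the bases of that mark in the WT window. Purple bars are members and colored bars are promoters with that mark alone in WT; for H3K4me3 the members stand higher at each of the 5 widths, for H3K27me3 at 4 of 5.

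Along the promoter, H3K4me3 was highest near the gene start and H3K27me3 dipped there in both genotypes. In KO, H3K4me3 lay over the start at fewer members and 2 kb upstream at more. An H3K4me3 island lay over the gene start at 82.8% of the members in KO and 92.1% in WT, and 2 kb upstream at 43.4% in KO and 33.5% in WT. H3K27me3 dipped at the start, with 63.8% in KO and 67.8% in WT, and was highest upstream, at 75.1% in KO and 79.9% in WT. These positions were taken for the members alone, with no share over other promoters. The rule chose the members on the WT islands of both marks. The mean H3K4me3 length per window was 2897 bases in KO and 2969 in WT, and the median difference was 0. For H3K27me3 the means were 2756 bases in KO and 2931 in WT, again with a median difference of 0. H3K4me3 was wider in KO at 750 members (43.6%) and narrower at 565 (32.9%), against 24.3% and 13.7% of all promoters. H3K27me3 was wider at 428 (24.9%) and narrower at 453 (26.4%), against 7.62% and 3.93% of all. At promoters with the same mark alone in WT the shares were 34.4% and 19.4% for H3K4me3, and 21.2% and 14.3% for H3K27me3. Mean lengths over all promoters were 2269 bases in KO and 2196 in WT for H3K4me3, and 721 and 664 for H3K27me3. A rule that needs both marks in WT lets members lose a mark but not gain it anew.

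**Figure D3:**
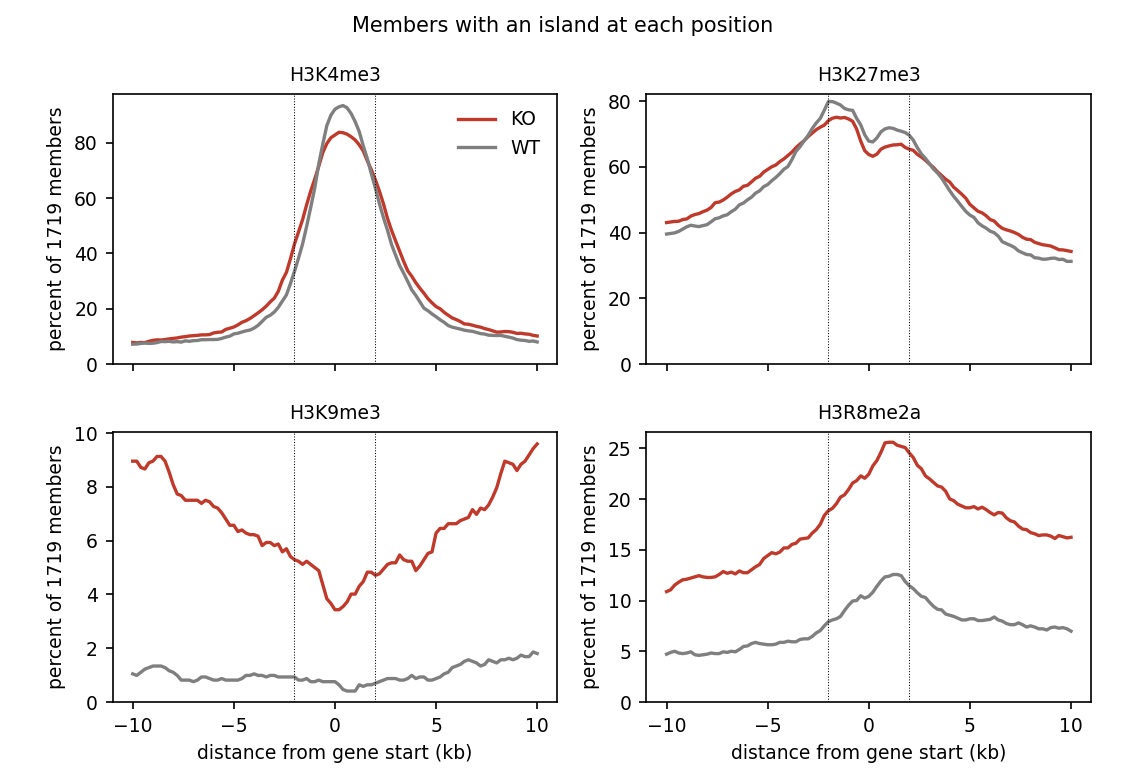
Percent of the 1719 members with an island at each position from 10 kb upstream to 10 kb downstream of the gene start, in KO (red) and WT (gray), with the 2 kb window between dotted lines. H3K9me3 in KO was lowest at the start (3.43%) and reached 8.96% and 9.60% at the ends, and H3R8me2a was higher in KO along the whole stretch. Other promoters are not shown, so these shapes cannot be called particular to the members.

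The members with both marks over the whole window in both genotypes, ranked by the shared bases within 10 kb, were led by SLC12A7, HOXB3, HOXB6, ZNF503, PRKCZ and CBX8. Each had 4001 bases of H3K4me3 and 4001 bases of H3K27me3 in KO, and the same in WT. HOXB3 and HOXB6, homeobox factors of the body axis, have almost the same annotated start and are 1 locus, with 1327 and 1247 bases of H3R8me2a in KO and 0 in WT. CBX8 is a chromobox subunit of Polycomb repressive complex 1 that binds H3K27me3. SLC12A7, a potassium-chloride cotransporter, had 3001 bases of H3K9me3 in KO and 0 in WT, and PRKCZ, an atypical protein kinase C of cell polarity, had 1650 in KO and 0 in WT. PRKCZ and CBX8 also had 4001 bases of H3R8me2a in KO and 0 in WT, while SLC12A7 had 1378 in KO and 4001 in WT. ZNF503 had neither of these marks in either genotype. The annotated gene starts of HOXB3 and CBX8 lie 14671 and 4606 bases from the start of the canonical transcript, where both genes had both marks in KO and WT as well. H3K4me3 covered 1203 bases at the canonical start of HOXB3 in both genotypes. H3R8me2a was narrower in KO at these canonical starts, with 398 bases against 2003 in WT at HOXB3 and 1276 against 1925 at CBX8. Its gain at these 2 genes thus depends on the start used.

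Among the 203 members with H3K27me3 alone in KO, those with the widest loss of H3K4me3 were WNT3A, CHRD, RGS11, THPO, IRX2 and RAB6B, each with 0 bases of H3K4me3 in KO and 4001 in WT. Within 10 kb of its start, WNT3A had no H3K4me3 in KO and 14200 bases in WT, with 15000 bases of H3K27me3 in KO and 16102 in WT. The H3K4me3 island of WT ran from 228189801 to 228204000 on chromosome 1 (14.2 kb). CHRD, which encodes the BMP antagonist chordin, and THPO, which encodes thrombopoietin, are overlapping neighbors on opposite strands and share their islands, with no H3K4me3 within 10 kb in KO and 10400 bases in WT. RGS11, a regulator of G protein signaling, had 3600 bases of H3K4me3 left within 10 kb in KO, against 14000 in WT. IRX2, an Iroquois homeobox factor, had 1591 bases of H3K9me3 in the window in KO and 0 in WT, and RAB6B, a small GTPase of the Golgi, had 4075 bases within 10 kb in KO and 0 in WT. WNT3A and RGS11 had 6001 and 2580 bases of H3K9me3 within 10 kb in KO and 0 in WT, and CHRD and THPO had none. CHRD, RGS11 and THPO had 3201, 4001 and 3356 bases of H3R8me2a in KO and 0 in WT. The study named IRX2 on these samples, so its values are no independent evidence.

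Among the 209 members with H3K4me3 alone in KO, ZIC1, BSX, MAN1A1, IRAK3, BMPR1B and KLF14 each had 0 bases of H3K27me3 in KO and 4001 in WT. Within 10 kb of the start, none of the 6 had any H3K27me3 in KO, where WT had 20001 bases at ZIC1, a zinc finger factor of neural development, and 15767 at KLF14. H3K4me3 was wider in KO at BSX, a homeobox factor of the hypothalamus, with 2942 bases in KO and 742 in WT, at IRAK3, an inhibitor of Toll-like receptor signaling, with 2775 and 1400, at BMPR1B, a BMP receptor, with 3495 and 2706, and at KLF14, with 4001 and 3000. It was narrower at MAN1A1, a mannosidase of N-glycan trimming, with 3675 bases in KO and 3875 in WT, and at ZIC1, with 1992 and 3592. ZIC1 had 4001 bases of H3K9me3 in KO and 2392 in WT, and was not counted as joined. Its canonical start lies 15943 bases from the annotated gene start, and H3K27me3 was absent there in KO too, against 4001 bases in WT, while H3K4me3 was wider there in KO, 4001 bases against 1752 in WT.

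Of the 4 members with neither mark in KO, 3 have a gene symbol. FOXJ1, the master factor of motile cilia, had no H3K4me3 and no H3K27me3 in KO, against 2875 and 4001 bases in WT, and its H3R8me2a was 4001 bases in both. PRR30 had 1123 bases of H3K4me3 and 78 of H3K27me3 in WT, and SLC5A2, the kidney sodium-glucose cotransporter, had 323 and 123, so these windows touched island edges. Within 10 kb, H3K4me3 covered 6723 bases in KO and 7600 in WT near PRR30, and 10001 in KO and 11078 in WT near SLC5A2. H3K27me3 covered 0 bases within 10 kb in KO at both genes, against 3200 in WT near PRR30 and 4200 near SLC5A2. The wide loss of both marks was thus found at FOXJ1 alone among the named genes of this state.

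H3K9me3 joined some of the members in KO. It was present at 150 members in KO and at 29 in WT, and all 29 kept it. Of the 1690 members free of H3K9me3 in WT, 121 (7.16%) had it in KO, against 8.62% of all such promoters. The share was 3.97% at H3K4me3-alone promoters (437 of 11001), 26.8% at H3K27me3-alone promoters (616 of 2297) and 11.2% at promoters with neither mark (512 of 4573). The members' share was therefore near the background and below that of promoters with H3K27me3 alone, and none of these differences was tested. Among windows wholly under H3K27me3 in WT, 75 of 791 members (9.48%) and 456 of 1551 H3K27me3-alone promoters (29.4%) gained H3K9me3. At a CpG ratio over 0.6 the shares were 7.45% and 31.9%, so the gap was no smaller among CpG-rich promoters. By the state of the members in KO, H3K9me3 was gained at 87 of 1283 with both marks (6.78%), 25 of 202 with H3K27me3 alone (12.4%), 8 of 201 with H3K4me3 alone (3.98%) and 1 of 4 with neither. The H3K9me3 islands of KO covered 195 Mb, against 52.8 Mb in WT, and the part of this in the gain was not tested. With the longest KO islands up to the WT length, 21 members gained the mark, 1.24% of those free of it, against 4.88% of the H3K27me3-alone promoters.

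**Figure D4:**
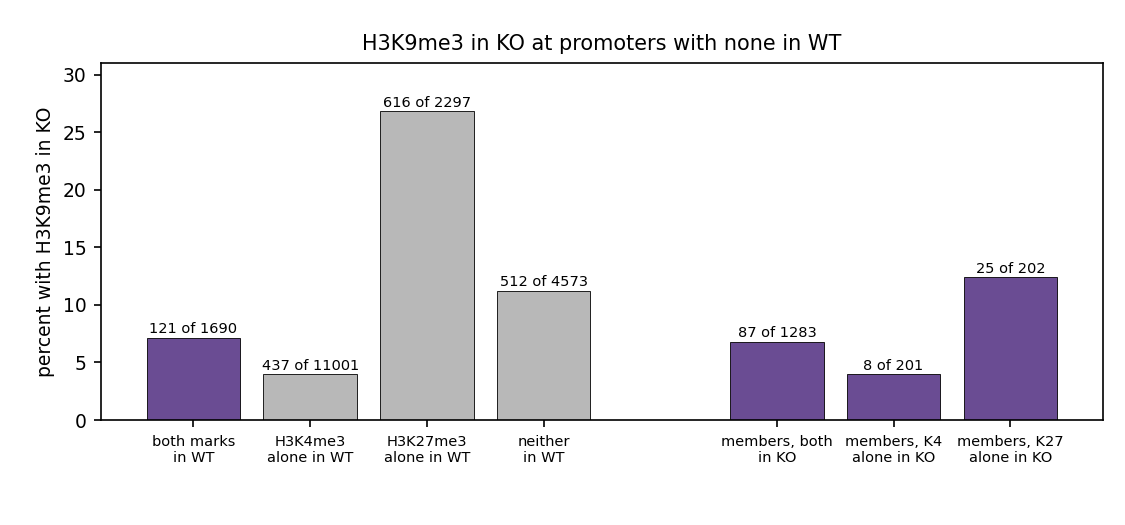
Percent of promoters with no H3K9me3 in WT that had it in KO, by their WT state (left) and, for the members, by their KO state (right, the 4 with neither mark left out), with the counts above each bar. Purple bars are members. The 7.16% of members lay between the 3.97% of H3K4me3-alone and the 26.8% of H3K27me3-alone promoters.

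Where H3K9me3 joined, it seldom filled the promoter. The 121 members had a median of 1554 bases (from 21 to 4001), 12 had the whole window covered and 43 had it over the gene start. It lay on the upstream side alone at 40, on the downstream side alone at 32 and on both at 49. At 70 of the 121, bases were shared by H3K4me3, H3K27me3 and H3K9me3, with a median of 1319.5 such bases. The longest H3K9me3 island touching each window had a median length of 5.4 kb and reached 71 kb. Over all members, an H3K9me3 island of KO lay at the gene start in 3.43%, 10 kb upstream in 8.96% and 10 kb downstream in 9.60%, against 0.756%, 1.05% and 1.80% in WT. The same positions were not taken for other promoters.

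The joined members with the most H3K9me3 were DUSP22, ART5, BARX1, ZNF287, ART1 and EBF2, each with 4001 bases in KO and 0 in WT, and all 6 had both other marks in KO. BARX1 had 1564 bases of H3K4me3 in KO and 3564 in WT, 4001 of H3K27me3 in both, and the KO cells had an H3K9me3 island from 96699201 to 96724000 on chromosome 9 (24.8 kb). EBF2, a factor of the early B-cell factor family, had 4001 bases of H3K4me3 in KO and 3472 in WT. ART5 and ART1, ADP-ribosyltransferases, are neighbors on chromosome 11 and had 3055 and 243 bases of H3K4me3 in KO, against 1800 and 43 in WT. At ZNF287, a zinc finger protein, both marks were wider in KO, with 3883 bases of H3K4me3 against 3200 in WT and 1918 of H3K27me3 against 918. DUSP22, a dual-specificity phosphatase, was a member by 171 bases of H3K27me3 in WT, against 4001 in KO, and from its canonical start, 857 bases away, it was not bivalent in WT.

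H3R8me2a was present at 500 members in KO (29.1%) and at 258 in WT (15.0%). Of the 1461 members free of it in WT, 305 (20.9%) had it in KO, against 18.1% of all such promoters, and of the 258 with it in WT, 63 (24.4%) had none in KO, against 19.5% of all. Both shares were near the background. By WT state, the gain was 30.4% at H3K4me3-alone and 7.26% at H3K27me3-alone promoters, so the members lay between them, as they did for the WT level of 15.0% against 44.8% and 2.12%. By KO state of the members, H3R8me2a was gained at 248 of 1098 with both marks (22.6%), 34 of 166 with H3K4me3 alone (20.5%) and 20 of 194 with H3K27me3 alone (10.3%). The mean length per member window was 913 bases in KO and 425 in WT. By chromosome, the share of members gaining H3R8me2a ran from 0% on chromosomes 10, 13 and 18 to 42.3% on chromosome 17, and over all promoters from 3.61% on chromosome 10 to 37.9% on chromosome 20. On chromosome 10, 0 of 65 members gained it and 11 of 17 lost it (64.7%), against 3.61% gained and 41.4% lost over all promoters there. On chromosome 18, 0 of 23 gained it and 5 of 6 lost it (83.3%), against 5.38% and 67.5% over all. On chromosome 11, 30 of 104 gained it (28.8%) and 1 of 24 lost it (4.17%), against 26.5% and 6.01% over all. Chromosomes with few gains and many losses among these members were thus so over all promoters as well.

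Developmental transcription factors gave 100 of the 1719 members. These were 31.9% of the 313 genes in 10 lists of such factors (against 8.54% of all promoters), and in KO 84 of them had both marks, 7 H3K4me3 alone, 8 H3K27me3 alone and 1 neither. HOX genes, which set position along the body axis, had 22 members of 39, of which 21 had both marks in KO and HOXA4 had H3K27me3 alone, with 0 bases of H3K4me3 in KO and 1000 in WT. HOXA5, HOXB4, HOXB5 and HOXB9 had 4001 bases of both marks in KO and in WT. HOXA9 had 202 bases of H3K27me3 in KO and 3602 in WT, with H3K4me3 of 4001 and 2402. At its canonical start, 9643 bases away, there was no H3K4me3 and 4001 bases of H3K27me3 in KO and WT, so neither the bivalent call nor this difference was found there. HOXC4 likewise had no H3K4me3 in KO or WT at its canonical start, 36904 bases away. HOXA7 had less H3K4me3 in KO, 1555 bases against 3201 in WT, under unbroken H3K27me3. HOXC11 and HOXD12 gained 3110 and 3123 bases of H3K9me3.

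The list of NK, DLX, IRX, BARX and related homeobox factors had 22 members of 55, of which 18 had both marks in KO. H3K9me3 joined 12 of these 22, against 121 of the 1690 members free of it in WT, in a list that was chosen with earlier results known, and the difference was not tested. Over all 55 genes of the list, H3K9me3 lay at 29 in KO and at 4 in WT, so the gain was not limited to the members. NKX2-1, the factor of lung and thyroid development, had 1554 bases of H3K9me3 in KO and 0 in WT, with H3K4me3 of 2247 and 2047 bases and 4001 of H3K27me3 in both. NKX2-5, a factor of heart development, had 1887 bases in KO and 0 in WT, and IRX1 and IRX3 had 855 and 1299 in KO and 0 in WT, with both other marks left. NKX2-3, a factor of gut and spleen, had 0 bases of H3K4me3 in KO and 4001 in WT, and 2902 bases of H3K9me3 in KO and 0 in WT. VAX1, a factor of the ventral forebrain, had 0 and 1800 bases of H3K4me3 and 589 and 0 of H3K9me3 in KO and WT. ALX1, a factor of craniofacial cartilage, had no H3K27me3 in KO, against 3803 bases in WT, and 1400 bases of H3K9me3 in KO, against 0. DLX3, DLX4 and EMX1 kept both marks with no H3K9me3 in the window in either genotype. Within 10 kb, however, EMX1 had 5800 bases of H3K9me3 in KO and 0 in WT.

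Of the bHLH lineage factors, 12 of 50 were members and 9 had both marks in KO. HAND2, a factor of heart and limb, and MSC (musculin) had no H3K4me3 in KO, against 2000 and 4001 bases in WT, and 3001 and 3554 bases of H3K9me3 in KO, against 0. OLIG1, a factor of oligodendrocytes, had 4001 bases of each of the 3 marks in KO, and 2247 of H3K4me3, 4001 of H3K27me3 and 0 of H3K9me3 in WT. NEUROD1, NEUROG2 and ATOH1, proneural factors, had both marks and no H3K9me3 in the window in both genotypes. Within 10 kb, NEUROG2 had 1600 bases of H3K9me3 in KO and 0 in WT, and NEUROD1 and ATOH1 had none. Of the forkhead factors, 15 of 52 were members, and 14 had both marks in KO, FOXJ1 being the other. FOXP2 and FOXL1 had no H3K27me3 in KO or WT at their canonical starts, 328488 and 2181 bases away. FOXF1, a factor of lung mesenchyme, had 4001 bases of both in KO and WT. FOXA1, a pioneer factor of endoderm, had 3200 bases of H3K4me3 in KO and 2737 in WT with 3001 of H3K27me3 in both. At its canonical start, 810 bases away, H3K4me3 was 3054 in KO and 3547 in WT, so its direction depends on the start used. H3K27me3 was absent in KO at GATA6, a factor of endoderm and lung, which had 2051 bases in WT, at TBX1, a factor of the pharyngeal arches, which had 4001, at SIX3, a factor of the forebrain and eye, which had 1160, and at EYA2, a transcriptional coactivator, which had 3863. All 3 SOX members (SOX5, SOX17 and SOX21) and all 6 nuclear receptor members had both marks in KO. SOX5 was not bivalent at its canonical start, 612874 bases away, which had no H3K4me3 in KO or WT.

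**Figure D5:**
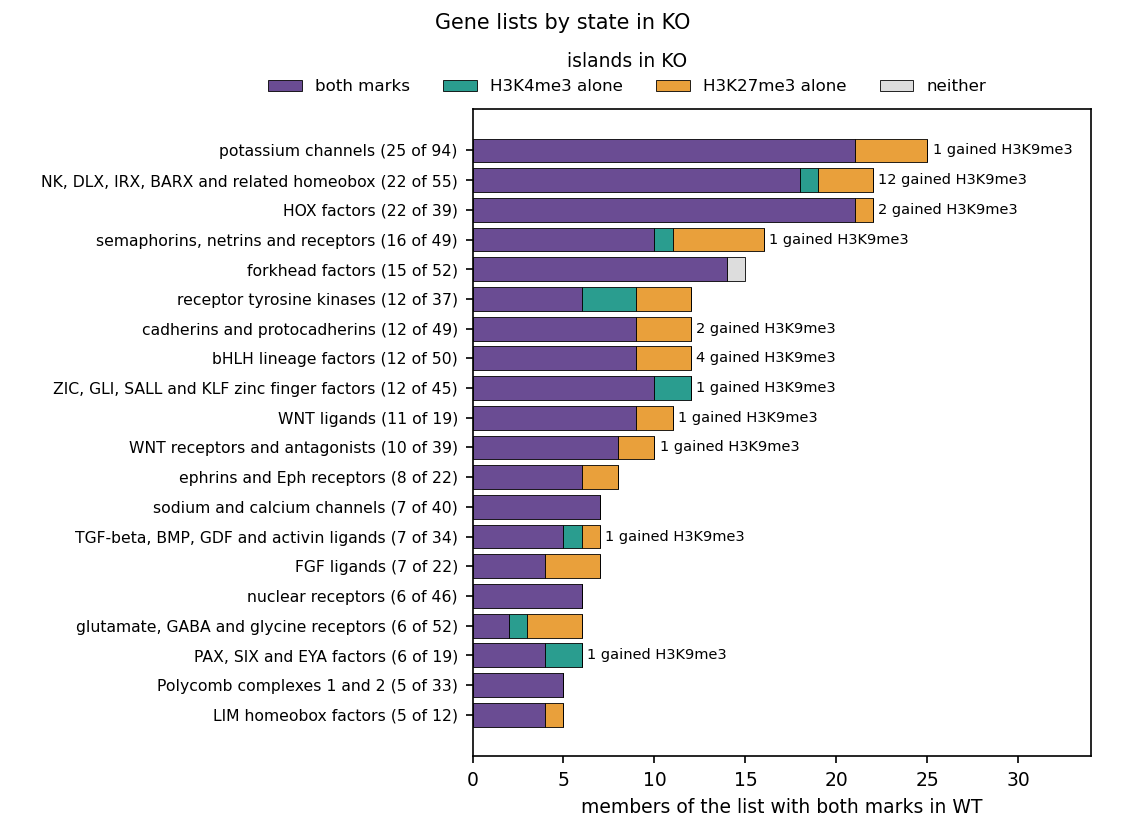
Members of each gene list with at least 5 members, apart from the stemness genes, split by the islands they had in KO, with the number of members and genes of the list in brackets and, beside the bar, how many members gained H3K9me3. In the HOX list 21 of 22 had both marks in KO, in the receptor tyrosine kinases 6 of 12, and 12 of 22 factors of the NK, DLX, IRX and BARX list gained H3K9me3. Over all 55 genes of that last list, members or not, H3K9me3 lay at 29 in KO and at 4 in WT.

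Signaling genes were members as well. Their counts stand beside the 8.54% of all promoters that were members and the 75.8% of all members with both marks in KO. The lists are small, and no difference between lists was tested. Of 19 WNT ligands, 11 were members and 9 had both marks in KO, WNT3A and WNT5A having H3K27me3 alone. WNT1 and WNT10B had 4001 bases of both marks in KO, WNT1 with 2105 bases of H3K4me3 in WT and WNT10B with 3318 of H3K27me3. WNT9A had both marks over the whole window in KO and WT and gained 2001 bases of H3K9me3. No H3K4me3 was left in KO at LGR6, a receptor of R-spondins, and at APCDD1, which inhibits WNT signals, against 2600 and 3032 bases in WT. Of 22 FGF ligands 7 were members, and FGF3, FGF10 and FGF17 had H3K27me3 alone in KO. At FGF17 the WT island reached only 109 bases into the window. FGF10, a growth signal of lung buds, had 0 bases of H3K4me3 in KO and 1600 in WT, whereas FGF9 had 4001 and 3001. Among BMP antagonists, CHRD and CHRDL1 had H3K27me3 alone in KO and GREM1 had both marks, with 3796 bases of H3K4me3 in KO and 3405 in WT. All 4 Notch and hedgehog members (DLL4, JAG2, IHH and DHH) had both marks in KO.

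Receptor tyrosine kinases had 12 members of 37, and 6 had both marks in KO. MERTK, a receptor for the uptake of dying cells, and the insulin and IGF receptors INSR and IGF1R had no H3K27me3 in KO, against 2200, 1225 and 833 bases in WT. FGFR2, FGFR4 and NTRK2, receptors of fibroblast growth factors and of BDNF, had no H3K4me3 in KO, against 1800, 3706 and 2890 bases in WT. FGFR3 had 4001 bases of H3K4me3 and 3201 of H3K27me3 in both genotypes. Semaphorins, netrins and their receptors had 16 members of 49, 10 with both marks in KO. ROBO1, SEMA5A, UNC5D, SEMA6D and DCC, guidance cues and receptors of growing axons, had H3K27me3 alone, and H3K4me3 in WT ran from 1400 bases at ROBO1 to 2600 at SEMA5A. The canonical start of SEMA6D lies 533404 bases away and had no H3K27me3 in KO or WT, with 3302 bases of H3K4me3 in KO and 3702 in WT, so the state of SEMA6D depends on the start used. SEMA6B, which had both marks in KO, had neither in KO or WT at its canonical start, 22092 bases away. NTN1, which encodes netrin-1, had 4001 bases of both marks in KO and WT. Potassium channels gave 25 members of 94, 21 with both marks in KO and KCND3, KCNH1, KCNK3 and KCNG2 with H3K27me3 alone. All 7 sodium and calcium channel members had both marks, and of the 6 glutamate, GABA and glycine receptor members 2 did. KCNN1, GABRB1 and GRIN2C were not bivalent in WT at their canonical starts, 15814, 37844 and 1619 bases away.

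Of 33 genes of Polycomb repressive complexes, 5 were members (15.2%, against 8.54% of all promoters), BMI1 and CBX8 among them. All 5 had both marks in KO, against 75.8% of all members. PCGF1 was a member by 22 bases of H3K27me3 in WT, against 222 in KO. BMI1, a ring finger partner of Polycomb complex 1, had 4001 bases of H3K4me3 in both genotypes and 1628 bases of H3K27me3 in KO, against 1828 in WT. None of 18 COMPASS and MLL genes and none of 20 H3K9 methyltransferases and readers was a member. Both lists are small beside a share of 8.54%, so these absences say little and were not tested. Ribosomal proteins, which every cell uses, had 2 members of 84 (2.38%), and olfactory receptors, closed in epithelium, 1 of 414 (0.242%). CDKN1C, a cyclin-dependent kinase inhibitor that is imprinted, had both marks over the whole window in both genotypes.

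The study names some genes of cell growth and stemness that it picked on these samples, in a list that it gives as incomplete. Of 14 of these names, leaving out ISL, which is not a full gene symbol, 6 were members, and their direction is not independent evidence. WNT5A, BICC1, FGFR2 and APCDD1 had H3K27me3 alone in KO, each with 4001 bases of it in KO and WT. Their H3K4me3 was 0 bases in KO, against 1434 at WNT5A, 3032 at BICC1, an RNA-binding protein, 1800 at FGFR2 and 3032 at APCDD1 in WT. PDGFRA, which binds platelet-derived growth factor, had both marks, with 2401 bases of H3K4me3 in KO and 3001 in WT, and SAMD11 had 4001 in both. None of the 6 had H3K9me3 in the window in either genotype. At the canonical start of WNT5A, 3233 bases away, it covered 467 bases in KO and 0 in WT. Within 10 kb of the gene start, H3K9me3 covered 4200 bases at WNT5A, 1632 at APCDD1 and 447 at PDGFRA in KO. In WT these values were 0, 0 and 47, and SAMD11, BICC1 and FGFR2 had none in either genotype.

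Shares by chromosome rest on few members each and were not tested. Both marks were left in KO at 90.6% of the 128 members on chromosome 11 and at 52.6% of the 38 on chromosome 22, 58.2% of the 79 on chromosome 5 and 61.0% of the 82 on chromosome 10. H3K4me3 was absent in KO at 29.1% of the members on chromosome 5, 24.2% on X and 23.2% on chromosome 10, and the same chromosomes gave 5.27%, 4.14% and 4.44% of all promoters with H3K4me3 in WT. H3K27me3 was absent at 28.9% of the members on chromosome 22, where it was absent at 20.6% of all promoters that had it in WT. By number, chromosome 5 also led the members joined by H3K9me3, with 13 (16.9% of those free in WT, against 11.5% of all promoters there), while the share was largest on chromosome 21 with 3 members (21.4%, against 16.6% of all promoters there). None joined on chromosomes 15, 22 and X, where 4.33%, 5.28% and 7.23% of all promoters did.

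The KO cells had 1659 bivalent promoters, of which 1303 (78.5%) were members, and 2075 promoters were bivalent in either genotype. The other 356 were 1.93% of the promoters that were not bivalent in WT, and 274 of them had H3K4me3 alone in WT, 72 H3K27me3 alone and 10 neither. Over all promoters, H3K4me3 was present in KO at 3.51% of those with none in WT, and H3K27me3 at 3.77%. The 356 stand against 416 members that were bivalent in WT alone. CBX2, a Polycomb complex 1 subunit, and OTOF, which encodes otoferlin of inner ear hair cells, had 4001 bases of H3K4me3 in KO and 0 in WT, under 4001 bases of H3K27me3 in both. CFAP92, a protein of cilia, had the same values at its gene start, but 2400 bases of H3K4me3 in WT at its canonical start, 8614 bases away. LAMA5, a laminin chain of basement membranes, had 4001 bases of H3K27me3 in KO and 0 in WT, under 4001 of H3K4me3 in both.

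RIOX2 itself was not a member, with 2900 bases of H3K4me3 in KO and 2700 in WT and no H3K27me3 or H3K9me3 in either. It had 3100 bases of H3R8me2a in KO and 0 in WT, and the islands do not check the edit. Markers of the labelled cell type were mixed. H3K4me3 lay at 6 of 10 epithelial markers in KO and in WT, with TP63, KRT5, KRT14 and KRT19 at 0 bases in both, and at 6 of 8 mesenchymal markers in both. Of 8 leukocyte markers, H3K4me3 lay at 1 in KO and 2 in WT, with PTPRC, CD2 and CD3E among those at 0 in both, and of 5 ciliated and secretory markers at 1 in KO and 2 in WT. The epithelial cadherin CDH1 was a member with both marks in KO, 2000 bases of H3K4me3 against 2200 in WT and 4001 bases of H3K27me3 against 2200.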

How the data were processed

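ChIP-seq was performed on 9 libraries, 4 marks in KO and WT cells and 1 WT input, with 1 library per mark and genotype. The authors aligned the reads to hg19 with BWA (version not given in the sources used here), extended them, down-sampled the tags to the smallest sample and called islands in each library with SICER 1.1 (name and version from the submitters' processing notes). The deposited values are island starts and ends alone, with no height or read number, so the depth is unknown and no interval is given. Ends were read as inclusive, and 0 islands ended past a chromosome.

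Genes came from GENCODE 44 mapped to GRCh37, 1 entry per symbol (27 shorter entries left out). The value of a promoter is the bases under islands in its 4001-base window, and overlap needed 1 base. Percentages beside members are those of the same call over all promoters. No statistical test was run. Python 3.11.15, numpy 2.4.6 and matplotlib 3.10.9 were used. A recount by bedtools 2.31.1 differed in none of 4 counts, and the code was tested on simulated data. Sequences were read from the GRCh37 genome.

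The named genes are the 6 members each with the most bases shared by both marks, lost of H3K4me3, lost of H3K27me3 or gained of H3K9me3, up to 4 with neither mark, the 4 with the most shared bases among promoters bivalent in KO alone, ties broken by the bases within 10 kb, the members of the gene lists and RIOX2. ENSG identifiers without a symbol were not named. The members and lists were chosen with earlier results of these data known. Alternatives were other windows, overlaps, island lengths and gaps, equal total length, the canonical transcript start, autosomes and overlapping windows counted once.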

Additional observations from a re-analysis of the deposited data

How the results depend on the processing

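The 9 counts of promoters were taken under 10 alternatives, and 80 of the 90 values were within 1.5 times those given. The share of members with both marks in KO ran from 32.6% to 77.9%. With a window of 5 kb on both sides, 267 members gained H3K9me3 and 96 lost H3R8me2a. With the longest islands of each mark up to the total length of the shorter library, 561 members had both marks in KO, 506 H3K4me3 alone, 362 H3K27me3 alone and 290 neither, 21 gained H3K9me3, 154 gained and 137 lost H3R8me2a, and 123 promoters were bivalent in KO alone. This setting removes short KO islands by its construction. Under it H3K4me3 was absent in KO at 37.9% of the members and 11.3% of the H3K4me3-alone promoters. H3K27me3 was absent at 46.3% of the members and 28.8% of the H3K27me3-alone promoters. The order of the groups was as before, but this setting cannot check it, because members had the shorter islands in WT. Their medians were 4 kb for H3K4me3 and 10 kb for H3K27me3, against 6 kb and 15.2 kb at promoters with that mark alone. Merging islands within 1 kb changed none of the 9 counts. The canonical start lay over 2 kb from the gene start at 170 members (9.89%). No paired analysis was possible because each mark had 1 library per genotype. Without replicates, depth or island height, chance and calling differences cannot be told apart from a difference between the cells.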
